A study of Mus musculus with 2 samples.

Results

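The proteasome genes of mouse gastrocnemius, the large calf muscle, were described in 2 libraries. The genes were chosen by symbol: every gene whose symbol begins with Psma, Psmb, Psmc, Psmd, Psme, Psmf or Psmg followed by a digit, and which has at least 1 annotated protein-coding transcript. This took 50 of 55536 annotated genes. Another 4 genes with such symbols, Psmb5-ps, Psmb6-ps, Psmb6-ps2 and Psmb7-ps2, are annotated as pseudogenes only and were left out. They held at most 1.5 counts in a library.

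Both animals were adult males aged 8 to 10 months of the strain B6CASTF1/J, a cross of a C57BL/6 and a CAST parent, with no treatment named, and both belong to the only group of the study. Replicate 1 is the animal that the labels number 2, and replicate 2 the animal they number 4. The labels give the pair the same donor identifier, so the spread between them may be partly technical. Total RNA (300 ng) was depleted of ribosomal RNA and sequenced with external (ERCC) spike-ins in 1 library per animal. Genes held 36792611 counts in replicate 1 and 37752249 in replicate 2, of which the proteasome genes took 81990 in replicate 1 and 94987 in replicate 2. The study holds no treatment or other tissue, so the design allows the levels of these genes to be compared with each other and between the animals. Bulk tissue was measured, and fewer cells of a type cannot be told apart from less RNA per cell.

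The proteasome is the protease that degrades proteins tagged with ubiquitin. Its core, the 20S particle, is a barrel of outer alpha rings and inner beta rings, in which the beta subunits Psmb5, Psmb6 and Psmb7 carry the chymotrypsin-like, caspase-like and trypsin-like activities. The 19S particle caps the barrel with a ring of ATPases (Psmc) that unfold substrates and non-ATPase subunits (Psmd) that bind and remove ubiquitin. In immune cells and under interferon gamma the catalytic subunits are replaced by Psmb8, Psmb9 and Psmb10, which form the immunoproteasome and favour peptides for presentation on class I molecules. In muscle the system is known for its part in protein loss during atrophy.

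The 5′ regions of 4 catalytic genes are shown because a wide gap in level lay between the constitutive catalytic subunits and their immunoproteasome counterparts. RefSeq gives a promoter window, from 250 bases before to 50 bases after the start, for 42 of the 50 genes (build GRCm38.p6, the assembly of mm10). No window was used for Psma8, Psmb1, Psmb2, Psmb7, Psmc3, Psmd3, Psmd7 and Psmg2. The windows of Psmb5 (chr14:54617946-54618245, minus strand), Psmb6 (chr11:70525107-70525406, plus strand), Psmb8 (chr17:34197945-34198244, plus strand) and Psmb9 (chr17:34187281-34187580, minus strand) follow, 5′ to 3′ on the strand of the gene, with matches to 5 searched motifs in capitals.
Psmb5: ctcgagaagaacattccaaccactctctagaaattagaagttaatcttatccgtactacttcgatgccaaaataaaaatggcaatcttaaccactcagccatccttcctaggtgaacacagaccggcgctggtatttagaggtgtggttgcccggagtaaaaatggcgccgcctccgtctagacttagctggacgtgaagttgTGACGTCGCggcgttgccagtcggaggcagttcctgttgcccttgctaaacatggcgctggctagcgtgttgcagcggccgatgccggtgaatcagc
Psmb6: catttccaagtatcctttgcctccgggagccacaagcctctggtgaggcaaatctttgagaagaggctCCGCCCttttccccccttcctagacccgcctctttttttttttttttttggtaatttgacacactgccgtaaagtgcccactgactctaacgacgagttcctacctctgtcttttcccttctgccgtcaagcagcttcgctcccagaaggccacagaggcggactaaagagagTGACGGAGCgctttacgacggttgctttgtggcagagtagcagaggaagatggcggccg
Psmb8: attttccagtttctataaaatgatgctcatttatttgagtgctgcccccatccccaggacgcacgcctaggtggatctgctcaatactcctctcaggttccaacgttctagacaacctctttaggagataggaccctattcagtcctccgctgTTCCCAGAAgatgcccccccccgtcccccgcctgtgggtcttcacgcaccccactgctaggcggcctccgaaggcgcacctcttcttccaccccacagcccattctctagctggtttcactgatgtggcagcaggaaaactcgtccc
Psmb9: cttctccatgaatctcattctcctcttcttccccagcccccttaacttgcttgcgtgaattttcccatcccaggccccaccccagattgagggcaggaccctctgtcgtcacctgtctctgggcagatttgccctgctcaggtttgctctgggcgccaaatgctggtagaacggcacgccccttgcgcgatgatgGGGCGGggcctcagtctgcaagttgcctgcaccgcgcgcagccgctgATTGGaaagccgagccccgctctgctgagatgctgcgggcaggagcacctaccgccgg
The motifs, searched on both strands, were the antioxidant response element core TGACNNNGC, the CCAAT box CCAAT, the GC box GGGCGG, the interferon response element core GAAANNGAA and the gamma-activated site core TTCNNNGAA. Positions are counted from the RefSeq start, with bases before it negative. The antioxidant core was found in Psmb5 at -47 and in Psmb6 at -9. Psmb6 also held a GC box at -182. Psmb8 held the gamma-activated core at -97, and Psmb9 a GC box at -55 and a CCAAT box at -8. These matches did not overlap each other. The window of Psmb10, also given by RefSeq, held none of the 5 motifs. The antioxidant core was present in 14.3% of the 42 windowed genes and in 13.99% of all 27025 genes with a window. The GC box was present in 54.8% of the 42 and in 38.2% of all genes, and the CCAAT box in 35.7% and 41.1%. The interferon core was present in 16.7% of the 42 and in 9.76% of all genes, and the gamma-activated core in 7.14% and 9.55%. A match of these letters is a description of the window and not evidence of binding.

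The standard subunits of the core and cap were expressed together at a level well above that of most genes. Levels are given in TPM, a relative abundance corrected for transcript length and library size, as the authors' deposited gene tables hold them. Of the 50 genes, 44 reached 1 TPM in both animals. The 31 standard subunits (7 alpha, 7 beta, 6 ATPases and 11 non-ATPase subunits) had a median of 56.7 TPM in replicate 1 and 62.9 TPM in replicate 2, a mean of 59.8 ± 4.33 TPM (SD, n = 2 animals). The median of the 9804 nuclear protein-coding genes at 1 TPM or more in both animals was 8.14 ± 0.173 TPM, so the median standard subunit stood 7.34 times above it. Among all 21888 nuclear protein-coding genes, 30 of the 31 standard subunits lay above percentile 90, and Psma2 lay at percentile 88.7. The highest of them, Psmb7, stood 6.56 times above the lowest, Psma2. The highest differed in the deposited table quantified against a transcript index (the index-based table). Psma3 led there, with 130.6 TPM in replicate 1 and 160.5 TPM in replicate 2. Psmb7 had 113.2 TPM in replicate 1 and 121.1 TPM in replicate 2. Psma2 was again the lowest, with 12.6 TPM in replicate 1 and 12.2 TPM in replicate 2, so the range was wider. Over protein-coding transcripts alone, Psmd13 was the lowest of the 31. Together the 50 genes made up 0.511% of the TPM of nuclear protein-coding genes in replicate 1 and 0.517% in replicate 2.

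**Figure D1:**
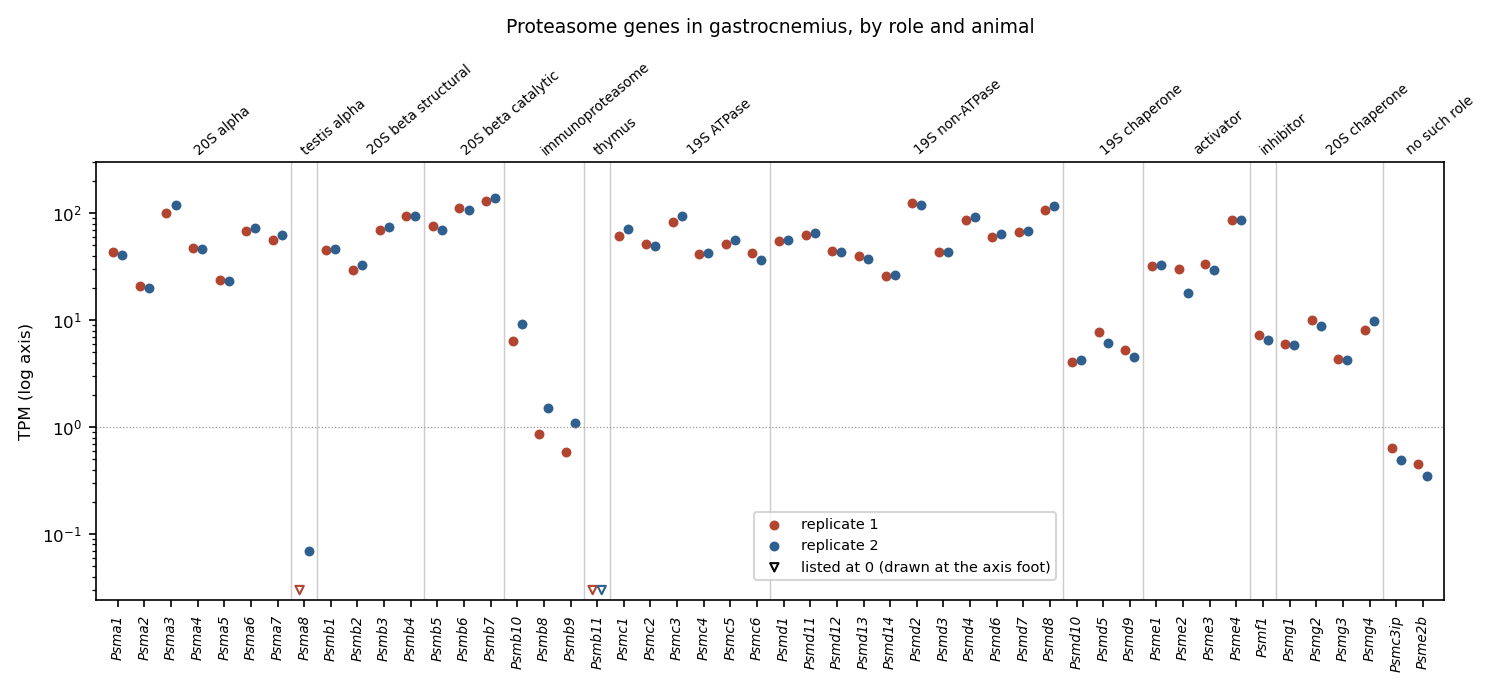
TPM (log axis) of the 50 proteasome genes in replicate 1 (red, left) and replicate 2 (blue, right), 1 column per gene, ordered by role. Open triangles at the foot mark values listed at 0, and the dotted line marks 1 TPM. The standard subunits lie between 19.99 and 139.6 TPM, the assembly chaperones between 4.10 and 10.1 TPM, and Psmb8 and Psmb9 near 1 TPM.

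The alpha subunits, which form the outer rings and the gate of the core, had a median of 47.2 TPM in replicate 1 and 46.5 TPM in replicate 2. Psma3 was the highest by gene level, with 100.1 TPM in replicate 1 and 118.6 TPM in replicate 2. Over protein-coding transcripts it overlapped Psma6. By that measure Psma3 had 65.9 TPM in replicate 1 and 81.5 TPM in replicate 2, and Psma6 67.5 TPM in replicate 1 and 71.2 TPM in replicate 2. Psma2 was the lowest, with 20.9 TPM in replicate 1 and 19.99 TPM in replicate 2. The spread among the 7 genes, 5.34-fold between these extremes, was therefore far larger than the spread between the animals. Psma7 had 56.7 TPM in replicate 1 and 62.9 TPM in replicate 2. The remaining genes, Psma1, Psma4, Psma5 and Psma6, lay between 23.4 and 73.0 TPM in both animals. Psma8, the alpha subunit of the testis proteasome, held 0 counts in replicate 1 and 1 count in replicate 2. Defining genes of male germ cells were likewise at or near 0, with Stra8 and Tex101 at 0 in both animals and Dazl, the highest of 5, at 0.27 TPM in replicate 1 and 0.25 TPM in replicate 2.

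The beta subunits without catalytic activity (Psmb1, Psmb2, Psmb3 and Psmb4) had a median of 57.6 TPM in replicate 1 and 60.1 TPM in replicate 2. Psmb4 was the highest of them, with 94.0 TPM in replicate 1 and 93.6 TPM in replicate 2. Its protein-coding transcripts held 46.8 TPM in replicate 1 and 53.3 TPM in replicate 2, and by that measure Psmb3 was the highest, with 69.1 TPM in replicate 1 and 73.4 TPM in replicate 2. Psmb2 was the lowest, with 29.7 TPM in replicate 1 and 33.0 TPM in replicate 2. Psmb3 had 69.5 TPM in replicate 1 and 73.6 TPM in replicate 2, and so lay between them in both animals by gene level. The constitutive catalytic subunits were among the most abundant genes of the complex. Psmb7, the trypsin-like subunit, had 128.9 TPM in replicate 1 and 139.6 TPM in replicate 2. Psmb6, the caspase-like subunit, had 112.4 TPM in replicate 1 and 108.2 TPM in replicate 2. Psmb5, the chymotrypsin-like subunit, had 75.8 TPM in replicate 1 and 70.3 TPM in replicate 2. Their order was the same in both animals, and the gaps between neighbours exceeded the differences between animals.

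The ATPases of the 19S cap ranged 2.23-fold in gene level from lowest to highest, and the structural beta subunits 2.99-fold. Over protein-coding transcripts this order turned, with 3.13-fold among the ATPases and 2.34-fold among the structural beta subunits. Psmc3 was the highest, with 82.3 TPM in replicate 1 and 93.5 TPM in replicate 2. Psmc6 was the lowest by mean, with 42.2 TPM in replicate 1 and 36.8 TPM in replicate 2. It did not differ from Psmc4 beyond their spread, since Psmc4 had 41.3 TPM in replicate 1 and 42.1 TPM in replicate 2. Over protein-coding transcripts Psmc6 lay apart from Psmc4, with 23.5 TPM in replicate 1 and 25.1 TPM in replicate 2, against 39.3 TPM in replicate 1 and 41.6 TPM in replicate 2 for Psmc4. Psmc2 had 51.6 TPM in replicate 1 and 49.4 TPM in replicate 2, and Psmc5 had 51.8 TPM in replicate 1 and 55.9 TPM in replicate 2, so this pair overlapped as well. Psmc1 lay above both by gene level, with 60.7 TPM in replicate 1 and 70.9 TPM in replicate 2. Over protein-coding transcripts it had 52.6 TPM in replicate 1 and 52.1 TPM in replicate 2. By that measure Psmc5 had 50.4 TPM in replicate 1 and 54.3 TPM in replicate 2, so Psmc1 no longer lay above Psmc5.

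The 11 non-ATPase subunits had a median of 59.8 TPM in replicate 1 and 64.1 TPM in replicate 2. Psmd2, a large scaffold of the cap base, was the highest, with 124.0 TPM in replicate 1 and 119.2 TPM in replicate 2. Psmd8, a subunit of the lid, followed with 108.0 TPM in replicate 1 and 117.7 TPM in replicate 2. The gap between this pair in replicate 2 was smaller than the difference of Psmd8 between the animals. In the index-based table the order of the pair turned in both animals. Psmd8 had 92.6 TPM in replicate 1 and 100.5 TPM in replicate 2 there. Psmd2 had 83.2 TPM in replicate 1 and 80.9 TPM in replicate 2. Psmd14, the enzyme that cuts ubiquitin from substrates, was the lowest, with 25.7 TPM in replicate 1 and 26.6 TPM in replicate 2. Over protein-coding transcripts Psmd13 was lower, with 19.8 TPM in replicate 1 and 18.9 TPM in replicate 2, against 25.3 TPM in replicate 1 and 24.7 TPM in replicate 2 for Psmd14. Psmd4, a receptor for ubiquitin chains, had 87.2 TPM in replicate 1 and 92.9 TPM in replicate 2. Psmd12 had 44.6 TPM in replicate 1 and 43.2 TPM in replicate 2. The level of these subunits thus ranged 4.65-fold by gene level and 6.24-fold over protein-coding transcripts, although each is a component of the same particle.

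The immunoproteasome subunits were 17.3 to 122.7 times lower than their constitutive partners by mean TPM ratio, after 0.1 TPM was added to each value. The upper bound, that of Psmb9, was 62.6 in the index-based table and 287.9 over protein-coding transcripts. Psmb8, the counterpart of Psmb5, had 0.87 TPM in replicate 1 and 1.5 TPM in replicate 2, from 19 counts in replicate 1 and 37 in replicate 2. Psmb9, the counterpart of Psmb6, had 0.58 TPM in replicate 1 and 1.09 TPM in replicate 2, from 16 counts in replicate 1 and 19 in replicate 2. Psmb10, the counterpart of Psmb7, had 6.35 TPM in replicate 1 and 9.26 TPM in replicate 2, from 108 counts in replicate 1 and 130 in replicate 2. All 3 were higher in replicate 2, but at these counts the difference was not resolved: the exact 95% counting interval of the log2 ratio of replicate 1 over replicate 2 ran from -1.69 to 0.02 for Psmb8, from -1.15 to 0.94 for Psmb9 and from -0.50 to 0.26 for Psmb10. These intervals cover counting error only and carry no variation between animals.

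Each immunoproteasome subunit was set against the constitutive subunit whose place it takes, as log2 of that TPM ratio. The log2 ratio was -6.29 in replicate 1 and -5.46 in replicate 2 for Psmb8 over Psmb5, a mean of -5.87 ± 0.59 (SD, n = 2). It was -7.37 in replicate 1 and -6.51 in replicate 2 for Psmb9 over Psmb6, a mean of -6.94 ± 0.61. It was -4.32 in replicate 1 and -3.90 in replicate 2 for Psmb10 over Psmb7, a mean of -4.11 ± 0.30. Psmb10 thus lay closest to its partner, and its values did not overlap those of the other pairs. Of the summed TPM of the 6 genes, the immunoproteasome subunits made up 2.40% in replicate 1 and 3.59% in replicate 2 (mean 2.996 ± 0.842%). No exact permutation test of 2 animals can reach a threshold of 0.05, so these ratios are given with their spread alone.

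A large part of that small share did not come from protein-coding transcripts. Over the 3 subunits these held 30.3% of the TPM in replicate 1 and 29.2% in replicate 2, but 45.9% and 46.3% of the expected counts. For Psmb10 the protein-coding transcripts held 28.7% of the TPM of the gene in replicate 1 and 14.6% in replicate 2. Of its expected counts they held 51.5% in replicate 1 and 35.9% in replicate 2. The rest of the TPM was assigned to Psmb10-202, Psmb10-205 and Psmb10-207, which retain introns, and to Psmb10-203, a processed transcript without a coding frame. Psmb10-203 alone took 0.61 TPM in replicate 1 and 6.16 TPM in replicate 2, while Psmb10-205 took 2.78 TPM in replicate 1 and 1.13 TPM in replicate 2. The protein-coding transcript Psmb10-201 had 1.82 TPM in replicate 1 and 1.35 TPM in replicate 2, the opposite order to the gene. With protein-coding transcripts only, the immunoproteasome share was 0.756% in replicate 1 and 1.10% in replicate 2, and the log2 ratio of Psmb10 over Psmb7 was -6.33 ± 0.37. In that measure the 3 pairs overlapped, and Psmb10 no longer stood closer to its partner than the others did. The index-based table likewise gave protein-coding transcripts 32.04% of Psmb10 in replicate 1 and 19.3% in replicate 2. For Psmb9 the few reads were placed differently in the animals: protein-coding transcripts held 0.01 TPM in replicate 1 and 1.08 TPM in replicate 2.

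**Figure D2:**
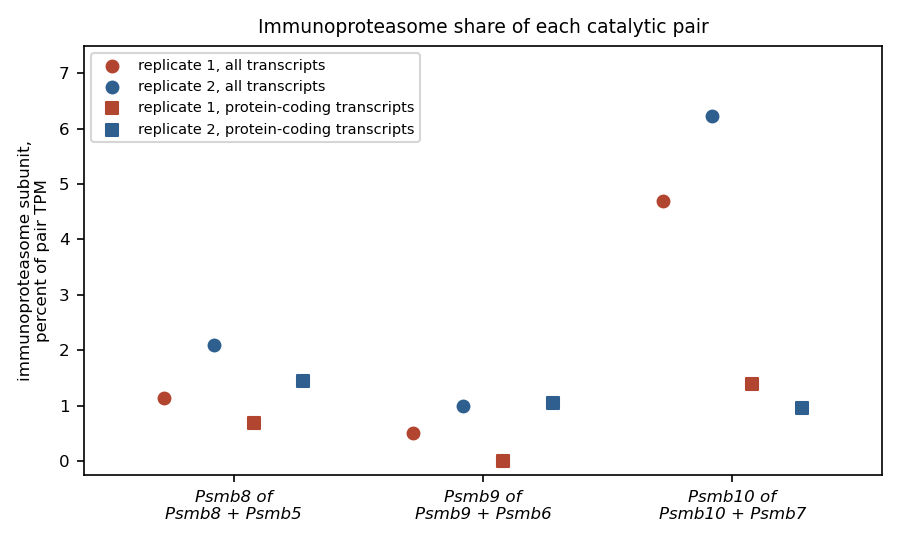
Percent of the summed TPM of each catalytic pair that came from the immunoproteasome subunit, in replicate 1 (red, left) and replicate 2 (blue, right), over all transcripts (circles) and over protein-coding transcripts (squares). Psmb10 reaches 4.70% in replicate 1 and 6.22% in replicate 2 over all transcripts, but 1.39% in replicate 1 and 0.959% in replicate 2 over protein-coding transcripts.

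Psmb11, the catalytic subunit of the thymus cortex, held 0 counts in both animals, which allows a level of up to 0.0815 CPM (counts scaled to library size) in replicate 1 and 0.0795 CPM in replicate 2, counting 3 counts as the limit. Foxn1 and Prss16, defining genes of thymus cortex epithelium, were also at 0 counts in both. Ly75, the highest of the 3 markers listed for it, held 2 counts in replicate 1 and 11 in replicate 2. These were 0.02 TPM in replicate 1 and 0.06 TPM in replicate 2. Leukocytes express the immunoproteasome at high level, and their markers were low. The 12 leukocyte markers summed to 8.53 TPM in replicate 1 and 5.35 TPM in replicate 2, with Cd3e, Cd8a, Cd79a and Nkg7 at 0 in both animals. Of the 12, 3 reached 1 TPM in both animals. Cd74 had 3.77 TPM in replicate 1 and 2.18 TPM in replicate 2. Csf1r had 1.94 TPM in replicate 1 and 1.18 TPM in replicate 2. H2-Aa had 1.27 TPM in replicate 1 and 1.04 TPM in replicate 2, a level near that of Psmb8 and Psmb9. Ptprc, the general leukocyte marker, had 0.41 TPM in replicate 1 and 0.23 TPM in replicate 2. The 3 immunoproteasome subunits summed to 7.80 TPM in replicate 1 and 11.9 TPM in replicate 2. Of this, the noncoding Psmb10-203 took 0.61 TPM in replicate 1 and 6.16 TPM in replicate 2. Among the leukocyte markers, the counting interval of the log2 ratio left out equal levels for Cd74 alone, from 0.18 to 1.08. The intervals of the 3 subunits all included equal levels with TMM scaling, although for Psmb8 this depended on the scaling. Whether markers and subunits differed in order between the animals was thus not resolved. The part of leukocytes in the level of these subunits was not tested.

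The activators open the gate of the core in place of the 19S cap. Of the 4, Psme4 lay above the median of the standard subunits and the others lay below it. Psme4, a large nuclear activator, had 85.9 TPM in replicate 1 and 86.0 TPM in replicate 2, and made up 47.3% of the activator TPM in replicate 1 and 51.9% in replicate 2. Psme3, which forms a nuclear ring of its own, had 33.4 TPM in replicate 1 and 29.2 TPM in replicate 2. Psme1 and Psme2 form a joint ring that interferon gamma induces in immune cells. Psme1 had 32.1 TPM in replicate 1 and 32.5 TPM in replicate 2, equal to Psme3 within the spread by gene level. Over protein-coding transcripts Psme3 lay above Psme1, with 27.19 TPM in replicate 1 and 25.04 TPM in replicate 2. Psme1 had 21.78 TPM in replicate 1 and 19.88 TPM in replicate 2 by that measure. The index-based table gave the opposite order, with 42.6 TPM in replicate 1 and 41.8 TPM in replicate 2 for Psme1. Psme3 had 38.6 TPM in replicate 1 and 32.4 TPM in replicate 2 there. By gene level Psme2 had 30.1 TPM in replicate 1 and 17.9 TPM in replicate 2, the largest TPM difference among the activators. Its expected counts were ordered oppositely, with 308 in replicate 1 and 378 in replicate 2, and the log2 ratio of scaled counts was -0.14 with a counting interval from -0.37 to 0.08. The short retained-intron transcript Psme2-203 (185 bases) took 13.6 TPM (29.2 counts) in replicate 1 and 0 TPM in replicate 2, and the protein-coding transcripts of Psme2 had 14.6 TPM in replicate 1 and 15.8 TPM in replicate 2. The protein-coding level of Psme2 thus differed little between the animals. Psmf1, an inhibitor of the core in vitro, had 7.32 TPM in replicate 1 and 6.51 TPM in replicate 2.

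The 7 Psmg and Psmd chaperones, which help to assemble the particle and are absent from the finished complex, were all lower than every standard subunit. Their median was 5.94 TPM in replicate 1 and 5.83 TPM in replicate 2, and the median standard subunit stood 10.2 times above it. Psmg2, the highest of the 7, had 10.1 TPM in replicate 1 and 8.82 TPM in replicate 2. It was 2.16 times below Psma2, the lowest standard subunit. The gap was smaller in the index-based table, where Psma2 had 12.6 TPM in replicate 1 and 12.2 TPM in replicate 2. Psmg4, the highest chaperone by mean there, had 9.45 TPM in replicate 1 and 10.9 TPM in replicate 2. Among the chaperones of the core (Psmg1 to Psmg4), Psmg3 was the lowest, with 4.29 TPM in replicate 1 and 4.22 TPM in replicate 2. Psmg4 had 8.13 TPM in replicate 1 and 9.85 TPM in replicate 2, overlapping Psmg2. Psmg1 had 5.94 TPM in replicate 1 and 5.83 TPM in replicate 2. Among the chaperones of the 19S base, Psmd5 was the highest with 7.69 TPM in replicate 1 and 6.14 TPM in replicate 2. Psmd10, also known as gankyrin, was the lowest with 4.10 TPM in replicate 1 and 4.23 TPM in replicate 2. Psmd9 had 5.29 TPM in replicate 1 and 4.48 TPM in replicate 2. The symbols Psmd5, Psmd9 and Psmd10 thus stood apart in level from the 11 Psmd genes that encode subunits, the lowest of which by gene level, Psmd14, had 26.1 ± 0.601 TPM.

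Both remaining genes have none of these roles. Psmc3ip, named as a partner of Psmc3 and known for a function in meiotic recombination, had 0.64 TPM in replicate 1 and 0.49 TPM in replicate 2, all of it assigned to Psmc3ip-202, which retains an intron. Psme2b, a near copy of Psme2 on chromosome 11, had 0.45 TPM in replicate 1 and 0.35 TPM in replicate 2, and only 21.6% of its 31-base words occur in no other gene.

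Across the 50 genes, protein-coding transcripts held 90.5% of the TPM in replicate 1 and 91.2% in replicate 2. Retained-intron transcripts held 5.98% in replicate 1 and 4.70% in replicate 2, and transcripts annotated for nonsense-mediated decay 2.37% in replicate 1 and 2.53% in replicate 2. The annotation lists 278 transcripts for these genes, up to 15 for Psmd11. In 29 genes protein-coding transcripts held 95% or more of the TPM on average, and in 12 under 80%. Psmd13 was the only standard subunit whose most abundant transcript was not protein-coding. Psmd13-211, annotated for nonsense-mediated decay, had 18.5 TPM in replicate 1 and 18.4 TPM in replicate 2, against 17.6 TPM in replicate 1 and 13.03 TPM in replicate 2 for the protein-coding Psmd13-208. In Psmb4 the retained-intron transcripts Psmb4-202 and Psmb4-203 together with the protein-coding Psmb4-201 held nearly all TPM, and Psmb4-201 held 49.7% in replicate 1 and 56.9% in replicate 2. In Psmc6 the protein-coding share was 55.7% in replicate 1 and 68.1% in replicate 2. That share was 32.2% in replicate 1 and 35.9% in replicate 2 in the index-based table. Of the expected counts of Psmc6 it was 82.8% in replicate 1 and 88.1% in replicate 2.

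Of 41 genes with several transcripts and 5 TPM or more in both animals, 38 had the same dominant transcript in both. The exceptions were Psmd4, Psmb10 and Psme2. In Psmd4, the protein-coding transcripts Psmd4-201 and Psmd4-202 were near equal, with 40.7 and 42.6 TPM in replicate 1 and 47.2 and 41.95 TPM in replicate 2. The index-based table, made from the same reads without transcriptome alignments, named the same dominant transcript as the alignment-based table in both animals for 34 of the 41. The other 7 were Psma3, Psmb1, Psmb10, Psmd4, Psme1, Psme2 and Psme3. In Psma3 the alignment-based table gave Psma3-204 56.7 TPM in replicate 1 and 53.5 TPM in replicate 2, where the index-based table gave 0 and 0.000801 TPM. The index-based table favoured Psma3-208, with 55.5 TPM in replicate 1 and 87.5 TPM in replicate 2. In Psme1 the protein-coding Psme1-208 led in the alignment-based table, with 67.1% of the gene in replicate 1 and 60.6% in replicate 2, and Psme1-209, annotated for nonsense-mediated decay, led in the index-based table with 61.3% in replicate 1 and 57.9% in replicate 2. In Psmb1 the dominant transcript was Psmb1-201 in the alignment-based table and Psmb1-204 in the index-based table, both protein-coding. Psmg3 and Psmd9, below the 5 TPM limit in an animal, and Psmb9 also had a dominant transcript that differed between animals or tables, and the 1 count of Psma8 was assigned to a noncoding transcript in the alignment-based table. Gene levels differed less between the tables than transcript levels: the index-based gene level was 0.605 to 1.33 times the alignment-based level over 45 genes, with a median of 0.855.

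**Figure D3:**
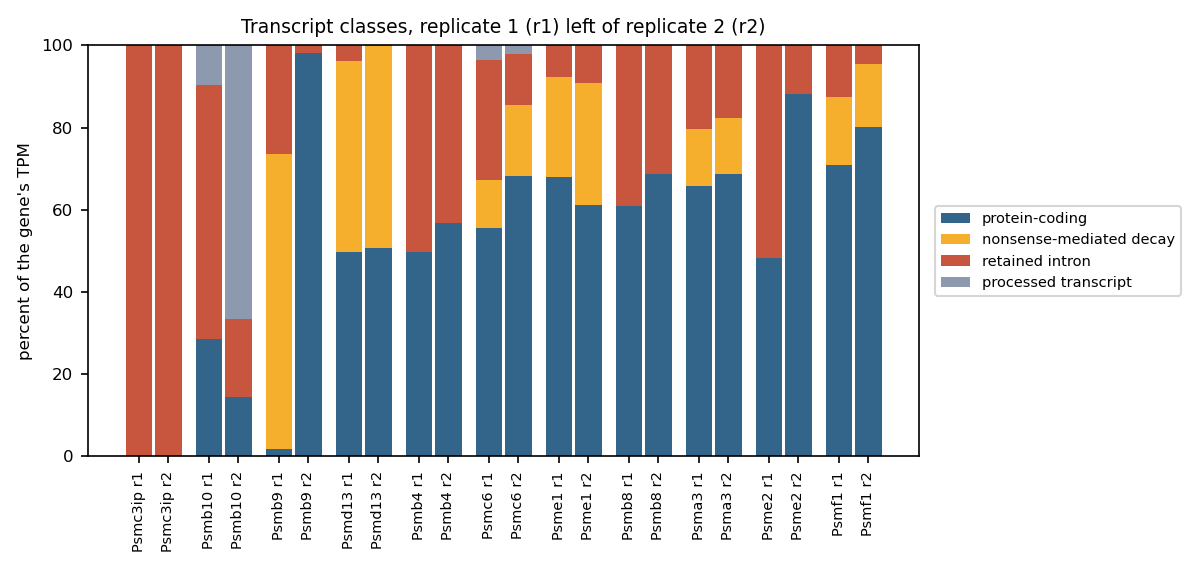
Percent of the TPM of each gene by annotated class of transcript, replicate 1 left of replicate 2, for the genes with under 80% protein-coding TPM on average and 10 or more counts on average. Psmd13 keeps nearly the same split in both animals, whereas Psmb10, Psmb9 and Psme2 do not.

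Some members share sequence with pseudogenes, so their counts could have been split. Only 28.3% of the 31-base words of Psmb5 occur in no other gene, and the pseudogene Gm3375, which shares 59.8% of them, was given 6.39 TPM in replicate 1 and 9.90 TPM in replicate 2. For Psma5 the unique share was 41.3%, and Gm8394 was given 3.86 TPM in replicate 1 and 4.38 TPM in replicate 2. Shares under 90% were found for 10 of the 50 genes, among them Psme2 (66.5%), Psmc1 (67.8%) and Psmd2 (68.4%), while 17 genes, Psmb9 and Psmb10 included, shared no word. Psmb9 overlaps exons of Tap1 on the opposite strand by 212 bases, and Psmb7 overlaps Nek6 by 405 bases. Psmc3ip overlaps Mlx on the opposite strand by 385 bases. Mlx held 151 counts in replicate 1 and 178 in replicate 2, against 15 and 13 for Psmc3ip. Psmd13 overlaps Sirt3 on the opposite strand by 342 bases, and Sirt3 held 311 counts in replicate 1 and 318 in replicate 2. The strand setting of the counting is not given in the sources used here, so reads of such pairs may not have been told apart.

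The levels of the complex differed little between the animals. Counts were compared as the log2 ratio of replicate 1 over replicate 2, after scaling by the trimmed mean of M values (TMM) over all genes, for the 43 members whose counts averaged 100 or more over the animals. The other 7, Psma8, Psmb8, Psmb9, Psmb11, Psmg3, Psmc3ip and Psme2b, fell short of this minimum. None of the 43 was 1.5-fold or more apart, against 3.39% of all 9516 genes with such counts. The largest ratios in either direction were those of the chaperones Psmg4 and Psmd9. Psmg4 had a log2 ratio of -0.31, from 90 counts in replicate 1 and 124 in replicate 2, with a counting interval from -0.72 to 0.09. Psmd9 had 0.24, from 204 counts in replicate 1 and 191 in replicate 2, with an interval from -0.05 to 0.54. Of the other chaperones, Psmg2 had 0.17, from 246 counts in replicate 1 and 242 in replicate 2, and Psmd10 had -0.07, from 137 counts in replicate 1 and 160 in replicate 2. The interquartile range of the ratios was 0.12 over the 43 members and 0.23 over all genes. With 1000 or more counts it was 0.11 over 30 members and 0.17 over 3117 genes.

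Most members were slightly lower in replicate 1. The median log2 ratio was -0.06 over the 43 members and 0.00 over all genes, and 32 of the 43 were below 0, against 49.9% of all genes. The counting interval left out equal levels for 14 of 43 members, all 14 higher in replicate 2 and 0 higher in replicate 1. Over all genes the interval left out equal levels for 36.7%, with 18.6% higher in replicate 1 and 18.0% higher in replicate 2. The 14 members were 13 standard subunits and Psme4, and made up 32.6% of the members tested. The lowest ratio was -0.19 for Psmb2, from 559 counts in replicate 1 and 710 in replicate 2. Psma7 had -0.17, from 1168 counts in replicate 1 and 1463 in replicate 2. Psmd8 had -0.17 as well, from 3467 counts in replicate 1 and 4332 in replicate 2. These were the lowest of the structural beta, alpha and non-ATPase subunits, and the intervals of all 3 lay below 0. Psmc5, the lowest ATPase, had -0.14, from 1589 counts in replicate 1 and 1942 in replicate 2. Among the catalytic subunits Psmb7 had -0.15, Psmb6 0.03 and Psmb5 0.06, the last from 1492 counts in replicate 1 and 1593 in replicate 2. The highest standard subunit was Psma2 with 0.09, from 1154 counts in replicate 1 and 1206 in replicate 2. Psmd12 had 0.04 and Psmc2 0.03, the highest of their roles, and no interval of these lay above 0. The activator Psme1 had 0.02, Psme3 -0.02 and Psme4 -0.04, and the inhibitor Psmf1 had 0.06.

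The direction depends on the scaling. With spike-in counts the median of the members was 0.09 and that of all genes 0.15. Of the 43 members, 20 then had intervals higher in replicate 1 and 0 higher in replicate 2. Over all genes the interval left out equal levels, in either direction, for 53.3% in that scaling. With total counts the medians were -0.17 and -0.11, and 28 of the 43 members had intervals higher in replicate 2. The share of all genes, in either direction, was then 47.6%. Since a scaling shifts all genes alike, the distance of the members from all genes was the same in each. Markers of muscle fibres moved with them: Ckm, Acta1, Myh4, Mylpf and Tnnt3 had TMM-scaled ratios from -0.20 to -0.07, all 5 with intervals higher in replicate 2, and their summed level was 69969 TPM in replicate 1 and 76232 TPM in replicate 2. With spike-in counts 3 of these 5 were below 0. Of the 5 endothelial markers, all had ratios below 0 (median -0.29), and their summed level was 33.3 TPM in replicate 1 and 39.99 TPM in replicate 2. The 4 fibroblast markers summed to 116.0 TPM in replicate 1 and 119.5 TPM in replicate 2. The part of these cell types in the ratios of the proteasome genes was not tested. Each animal is 1 library, so these differences have no replicate check.

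**Figure D4:**
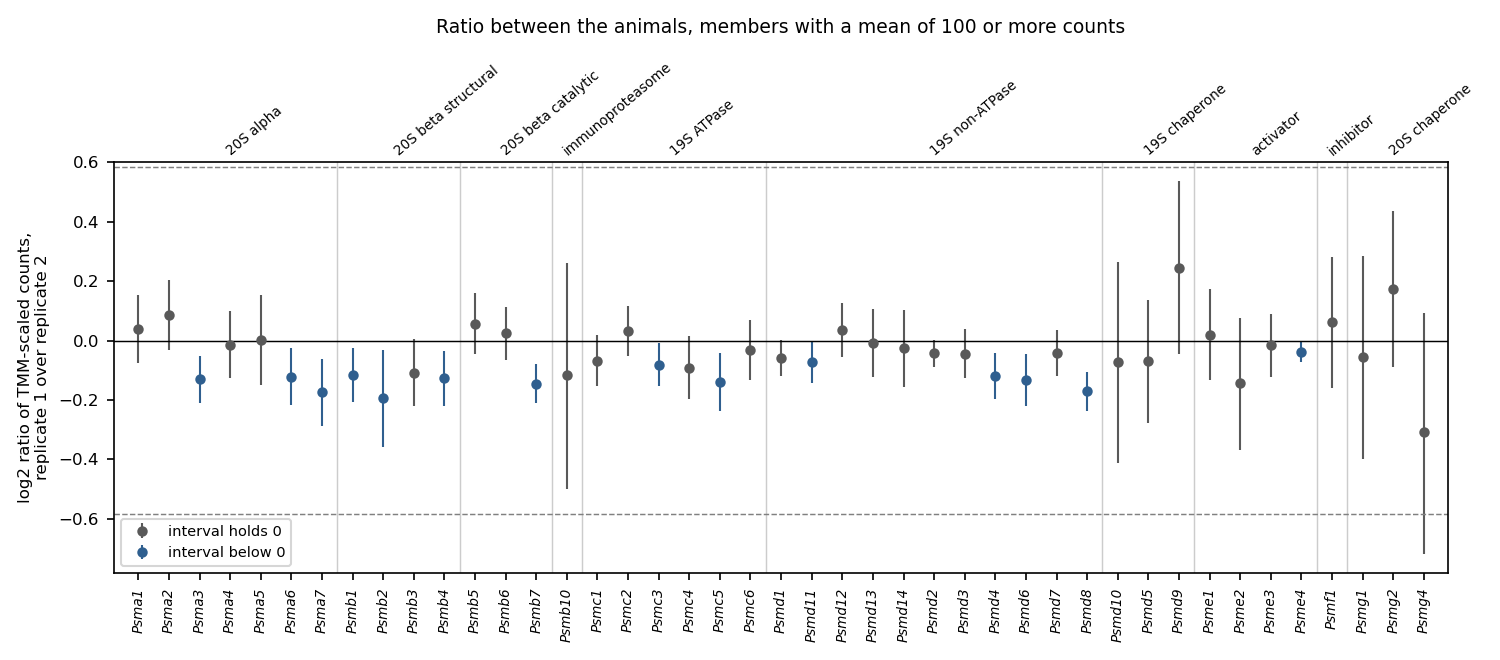
Log2 ratio of TMM-scaled counts, replicate 1 over replicate 2, for the 43 proteasome genes averaging 100 or more counts. Bars are exact 95% counting intervals, blue where the whole interval is below 0, and dashed lines mark 1.5-fold. All points lie between -0.31 and 0.24, inside the dashed lines.

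Genes that work with the proteasome were taken from 4 lists. The 10 partners found by symbol (of 12 listed, of which 2 are alternative names) had a median of 35.7 TPM in replicate 1 and 36.2 TPM in replicate 2. Ecpas, a scaffold that binds core and cap, was the highest, with 141.3 TPM in replicate 1 and 130.6 TPM in replicate 2. Fbxo7, which binds the inhibitor Psmf1, was the lowest, with 3.90 TPM in replicate 1 and 5.21 TPM in replicate 2. Pomp, the chaperone of beta ring assembly, had 55.9 TPM in replicate 1 and 60.8 TPM in replicate 2, and so unlike the Psmg chaperones lay at the level of the subunits. The log2 ratios of the 10 ran from -0.15 for the deubiquitinase Usp14 to 0.20 for Akirin2, an importer of the particle into the nucleus. Their median was -0.01, with 3 intervals higher in replicate 1 and 1 higher in replicate 2. With spike-in counts the median turned to 0.14, with 7 higher in replicate 1 and 0 higher in replicate 2, and with total counts 0 were higher in replicate 1 and 4 in replicate 2. Over all genes the interval left out equal levels, in either direction, for 36.7% with TMM, 53.3% with spike-in counts and 47.6% with total counts.

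Among 6 regulators of subunit genes, Nfe2l1, the transcription factor that raises subunit expression when the proteasome is impaired, was the most abundant, with 205.2 TPM in replicate 1 and 207.2 TPM in replicate 2. Ddi2, the protease that activates it, had 26.2 TPM in replicate 1 and 21.8 TPM in replicate 2. Nfe2l2, the factor of the oxidative stress response, had 15.5 TPM in replicate 1 and 12.5 TPM in replicate 2. Foxo3, a factor of muscle atrophy, was the lowest, with 9.70 TPM in replicate 1 and 7.80 TPM in replicate 2. Of the 6, 5 had intervals higher in replicate 1 (18.6% of all genes did), with log2 ratios from 0.07 for Nfe2l1 to 0.33 for Foxo3, and Ngly1, which removes sugars from Nfe2l1, had -0.08. The median of the 6 was 0.23. It was above 0 with each of the 4 scalings, but with total counts Nfe2l1 turned below 0 and 3 of the 6 intervals were higher in replicate 1 and 2 higher in replicate 2. The share of all genes, in either direction, was 47.6% in that scaling.

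The median of 9 ubiquitin genes and factors that deliver substrates was 74.2 TPM in replicate 1 and 75.01 TPM in replicate 2. Ubb, a polyubiquitin gene, was the highest of these 9, with 387.9 TPM in replicate 1 and 415.3 TPM in replicate 2, and had the smallest log2 ratio, -0.13. Ubqln2, a shuttle for ubiquitinated proteins, was the lowest, with 7.64 TPM in replicate 1 and 7.65 TPM in replicate 2. Its relative Ubqln1 had 21.5 TPM in replicate 1 and 18.8 TPM in replicate 2 and the largest ratio, 0.15. The median ratio of the 9 was -0.06, with 1 interval, that of Ubqln1, higher in replicate 1 and 3 higher in replicate 2. With spike-in counts the median turned to 0.09, with 4 higher in replicate 1 and 0 higher in replicate 2. With DESeq2 size factors 1 was higher in replicate 1 and 7 in replicate 2, and with total counts 0 in replicate 1 and 7 in replicate 2. Over all genes the interval left out equal levels, in either direction, for 36.7% with either TMM or DESeq2 size factors. The share of all genes was 53.3% with spike-in counts and 47.6% with total counts.

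The genes of interferon response and peptide loading, which share their known inducers with the immunoproteasome, had a median of 4.72 TPM in replicate 1 and 4.38 TPM in replicate 2. B2m, the light chain of class I molecules, was the highest, with 29.2 TPM in replicate 1 and 24.9 TPM in replicate 2. Nlrc5, a transactivator of class I genes, was the lowest, with 0.18 TPM in replicate 1 and 0.13 TPM in replicate 2. Tap1 and Tap2, the peptide transporter genes beside Psmb8 and Psmb9, were low. Tap2 had 2.11 TPM in replicate 1 and 3.51 TPM in replicate 2, and its log2 ratio of -0.80 (94 counts in replicate 1 and 183 in replicate 2) was the only one of the list past 1.5-fold. Tap1 had 0.34 TPM in replicate 1 and 0.69 TPM in replicate 2, from 24 counts in replicate 1 and 34 in replicate 2. Of the 8 genes with enough counts, 1 interval was higher in replicate 1 and 1 higher in replicate 2, and the median ratio was -0.01, which turned to 0.14 with spike-in counts. With total counts 0 intervals were higher in replicate 1 and 3 higher in replicate 2, and with spike-in counts 2 in replicate 1 and 1 in replicate 2. The share of all genes, in either direction, was 36.7% with TMM, 47.6% with total counts and 53.3% with spike-in counts.

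**Figure D5:**
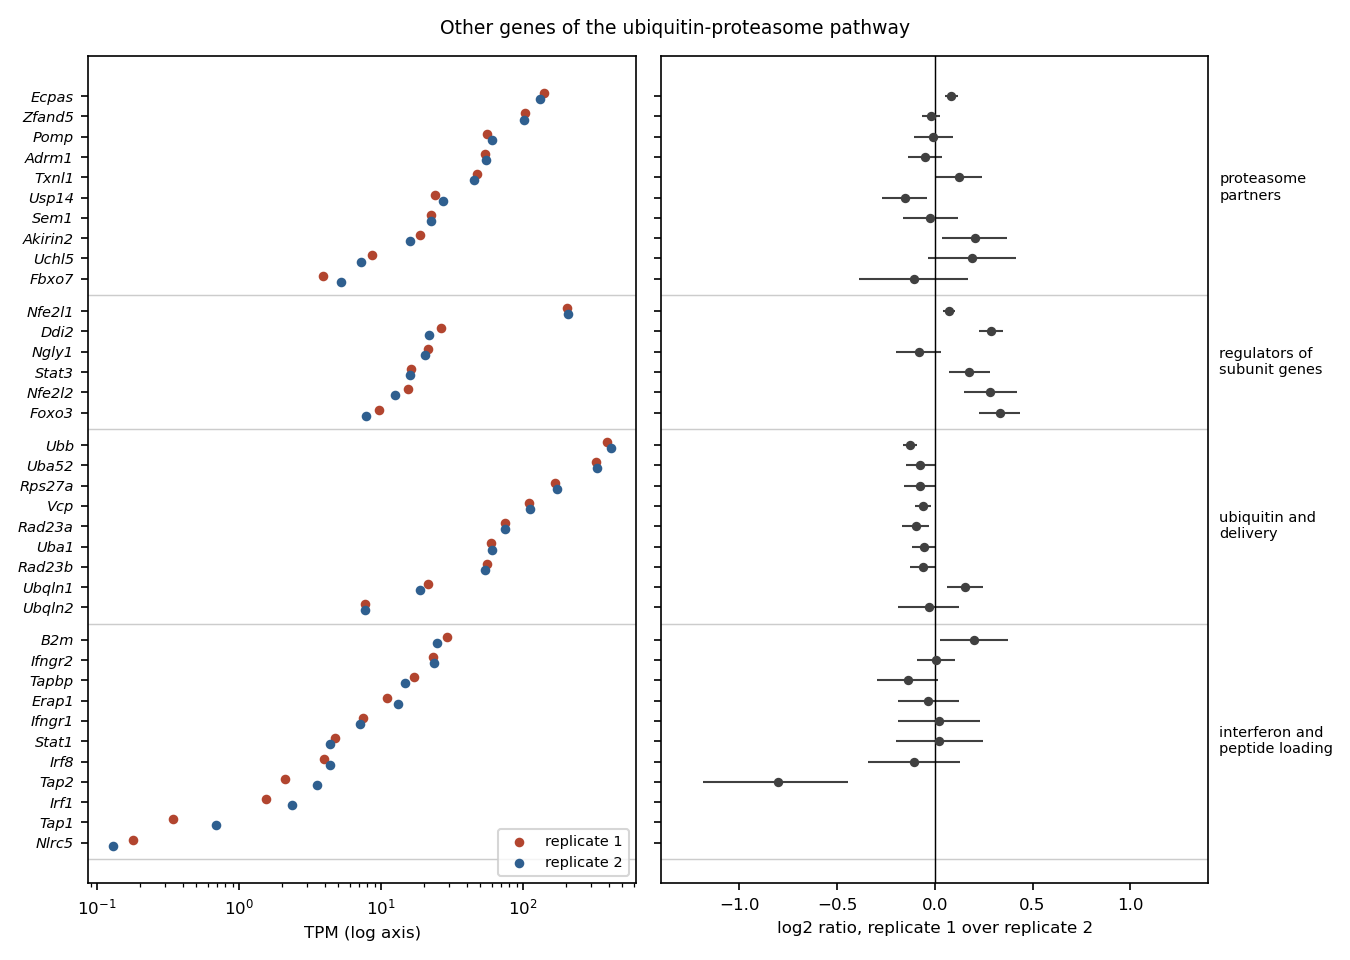
Other genes of the pathway by list, ordered by mean TPM. The left panel gives TPM (log axis) in replicate 1 (red, above) and replicate 2 (blue, below), and the right panel the log2 ratio of TMM-scaled counts with exact 95% counting intervals, for genes averaging 100 or more counts. Nfe2l1 and Ecpas lead their lists, and 5 of the 6 regulators lie right of 0.

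The 50 genes are spread over 16 chromosomes, with 10 on chromosome 11 and 6 each on chromosomes 2 and 14. Psmb5 and Psmb11 lie 3410 bases apart on chromosome 14, Psmb5 at 73.0 ± 3.89 TPM and Psmb11 at 0. Psmb9 and Psmb8 lie 9956 bases apart on chromosome 17 (mm10), both near 1 TPM. Psme1 and Psme2 lie 5911 bases apart on chromosome 14, with means of 32.3 ± 0.311 and 24.0 ± 8.64 TPM.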

How the data were processed

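Per the deposited notes, reads were assigned to mm10 with the GENCODE M21 annotation. The authors' deposited expected counts (raw read estimates for each gene or transcript, with no normalization) and TPM come from transcriptome alignments, in columns named as RSEM names them per the file headers. The bounds deposited as signal are the authors' lower and upper TPM limits and were not used, and the percent column, per the file headers, gives what each transcript takes of its gene. Another deposited table gives estimated counts and TPM from reads and an index, in columns named as kallisto names them. Aligner, versions and strand setting are not given in the sources used here.

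Expected counts were rounded and scaled by TMM (edgeR 4.0.16, R 4.3.3) with spike-ins left out. Log2 ratios used a prior of 1 count. Intervals are exact two-sided conditional binomial (Clopper-Pearson) intervals at 95%. With 1 library per animal, no model across genes had residual degrees of freedom, and no p-value was computed. Alternatives used DESeq2 1.42.0 size factors, total counts, spike-ins, other minimums, priors and pseudocounts, protein-coding transcripts, the index-based table and each animal left out. The interval was checked on simulated data. Other steps used Python 3.11.15 with pandas 2.3.3, numpy 2.4.6, scipy 1.17.1 and matplotlib 3.10.9.

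The members, lists and markers were chosen with earlier results of these data known. Values per animal are given for the highest and lowest member of each role by TPM and by ratio, all catalytic, immunoproteasome and activator genes, members whose dominant transcript is noncoding or differs between animals or tables, and the extremes of each list. One gene of the lists is not reported here and was left out of the values of its list.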

Additional observations from a re-analysis of the deposited data

How the results depend on the processing

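The median level of the standard subunits, 59.8 TPM, was 51.4 TPM in the index-based table, 138 TPM when TPM was rescaled over nuclear protein-coding genes, and 54.9 TPM with Psmd5, Psmd9 and Psmd10 added. Leaving out an animal gave 56.7 to 62.9 TPM. The immunoproteasome share of 2.996% became 0.927% over protein-coding transcripts, and 2.40% to 3.59% with an animal left out. A pseudocount of 1 TPM moved the log2 ratio to -5.10 for Psmb8 over Psmb5 and -5.94 for Psmb9 over Psmb6. Protein-coding transcripts alone gave -8.17 for Psmb9 over Psmb6 and -6.33 for Psmb10 over Psmb7, and the index-based table -5.97 for Psmb9 over Psmb6. With an animal left out these ratios ran from -6.29 to -5.46, from -7.37 to -6.51 and from -4.32 to -3.90. The median log2 ratio of the members between animals, -0.06, was -0.17 with total counts and turned to 0.0919 with spike-in counts. Total counts raised the number of members whose interval left out equal levels to 28, from 14. The share of all genes rose as well, to 47.6% from 36.7%. With a minimum of 10 counts, 1 member, Psmb8, was 1.5-fold apart, against 12.2% of all genes. The protein-coding share of 90.9% was 84.6% in the index-based table and 96.1% in expected counts (added after seeing the data), and 90.5% to 91.2% with an animal left out. The number of members at 1 TPM was 44 to 46 under the alternatives, and it was 46 at 0.5 TPM and 41 at 5 TPM. Of 66 values under alternatives, 47 moved within the spread or within 1.5 times the count. These include the 20 intervals with spike-in counts, all higher in replicate 1, where the 14 with TMM were all higher in replicate 2. Over all genes the interval left out equal levels for 53.3% with spike-in counts and for 36.7% with TMM. Depth limits the 7 members averaging under 100 counts. No paired analysis was possible because the study has 1 group. Ratios between the animals cannot be recomputed with an animal left out.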
